A study of Mus musculus with 6 samples.

Results

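The genes of regulated exocytosis, the release of stored secretory vesicles on demand, were examined in the duodenum of mice with a floxed Nkx2-2 gene, with and without an intestinal Cre. Members were chosen by gene name: synaptotagmins (Syt), synaptotagmin-like proteins (Sytl), syntaxins (Stx) and their binding proteins (Stxbp), VAMP and SNAP proteins, complexins (Cplx), Rab3 and Rab27, RIM (Rims) and Munc13 (Unc13) proteins, the granule proteins Ptprn and Ptprn2, and synaptophysin (Syp). Of 23699 gene models, 93 matched by name, and the 68 that reached 0.5 FPKM (fragments per kilobase of transcript, scaled to library depth) in at least 3 of the 6 libraries are the members. The name pattern also took 8 members that are other Rab GTPases, such as Rab30 and Rab35.

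RNA came from the 2 cm of duodenum next to the stomach, taken whole, from mice of mixed background aged 6 weeks. The 3 controls were Nkx2.2flox/+, so they carried a floxed allele too, and their labels name no Cre. The 3 mutants were Nkx2.2flox/flox with Villin-Cre/+, in which the Villin promoter drives Cre in the gut epithelium and leaves enteric neurons, muscle and immune cells outside its reach. Mutant 3 also carried Rosa26Tomato/+, a reporter allele. The labels do not state that each sample was a separate animal, so every p here reflects only how much these samples vary.

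Membrane fusion is carried out by SNARE proteins: a syntaxin and a SNAP protein on the target membrane zip together with a VAMP protein on the vesicle. Munc18 proteins hold the syntaxin, Munc13 and RIM proteins prime the vesicle, Rab3 and Rab27 tether it, and synaptotagmins trigger fusion when calcium enters. In the gut wall this machinery serves hormone release by enteroendocrine cells, transmitter release by enteric neurons, secretion of mucus, Paneth granules and digestive enzymes, and delivery of membrane to the brush border. Nkx2-2 is a homeodomain transcription factor of endocrine cells.

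The bases just before the start sites of 4 members are shown. They belong to the 6 that lay lower in every mutant library than in every control library, and were picked from them by no fixed rule, after values were seen. They are shown because the NK2 family of homeodomain proteins, to which Nkx2-2 belongs, is known to bind sites built on AAGTG. Each run is the 250 bases before an annotated start, 5′ to 3′ on the gene's own strand, from RefSeq (GRCm38.p6), with AAGTG, or its reverse complement CACTT, in capitals. Ptprn lies at chr1:75263772-75264021 on the minus strand, Syt1 at chr10:109009112-109009361 on the minus strand, Rab3c at chr13:110280207-110280456 on the minus strand, and Stx1a at chr5:135023232-135023481 on the plus strand. Ptprn and Syt1 each have 2 start sites in the table, and the window shown was taken because it holds the motif.
Ptprn: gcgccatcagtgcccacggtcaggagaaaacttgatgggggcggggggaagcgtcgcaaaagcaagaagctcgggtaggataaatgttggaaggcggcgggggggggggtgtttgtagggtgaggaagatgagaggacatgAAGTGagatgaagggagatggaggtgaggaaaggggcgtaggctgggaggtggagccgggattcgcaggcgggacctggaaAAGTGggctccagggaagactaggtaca
Syt1: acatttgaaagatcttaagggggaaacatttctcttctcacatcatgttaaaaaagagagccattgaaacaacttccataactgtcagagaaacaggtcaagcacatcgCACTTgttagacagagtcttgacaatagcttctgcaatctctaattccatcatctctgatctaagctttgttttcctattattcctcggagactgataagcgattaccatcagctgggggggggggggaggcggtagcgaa
Rab3c: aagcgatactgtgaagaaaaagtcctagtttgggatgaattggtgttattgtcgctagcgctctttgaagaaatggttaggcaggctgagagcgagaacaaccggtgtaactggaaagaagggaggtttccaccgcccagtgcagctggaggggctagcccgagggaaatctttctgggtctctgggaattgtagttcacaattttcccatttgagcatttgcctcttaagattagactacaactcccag
Stx1a: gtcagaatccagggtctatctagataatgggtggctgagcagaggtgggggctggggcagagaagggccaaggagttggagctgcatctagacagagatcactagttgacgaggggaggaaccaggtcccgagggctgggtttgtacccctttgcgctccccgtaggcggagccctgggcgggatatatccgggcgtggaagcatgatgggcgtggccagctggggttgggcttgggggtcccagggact
The motif stood in the Ptprn run 2 times, in the Syt1 run 1 time and in neither of the others. Over windows of 300 bases (250 before to 50 after the start) and both strands, 21 of the 50 members in the table held AAGTG in at least 1 window (42.0%), against 50% of all 27025 genes. The longer form TNAAGTGG, which contains the shorter one, was in the windows of 2 members, Stxbp2 and Syt11 (4.0%, against 3.65% of all genes). These matches describe letters only. No binding was measured, and 2 of the 6 members that were lower without overlap held the motif, so the runs shown hold it more often than the 6 do. Syt8 and Cplx2, the 2 not shown, lacked it.

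No member passed the test between mutants and controls: limma's adjusted p was 0.999 for each of the 68, and 0.0221% of the 13596 genes tested (3 genes) passed an adjusted p of 0.05. That count over all genes was not stable: it was 22 with the replicate number as a block, 19 with sample weights, 0 with limma-voom on rebuilt reads, 8 without mutant 1 and 68 without mutant 3. What the data do hold is a detailed picture of which paralogs the duodenum expresses, a set of small differences that are given as values, and intervals on how large a change could have been seen. The median log2 change of the members was -0.03, mutant minus control, against -0.02 over all genes tested. At an unadjusted p under 0.05, 2 members were higher in mutants (2.94% of members, against 1.8% of all genes) and 3 were lower (4.41%, against 1.63%): Syt12 and Syt5, and Syt1, Syt8 and Ptprn. With 3 samples against 3, an exact two-sided permutation test of any single gene cannot go below 0.1. Mutant and control libraries did not overlap for 3 members that were higher (4.41%, against 4.05% of all genes) and for 6 that were lower (8.82%, against 3.71%). Log2 changes are differences of log2(FPKM + 0.5), which understates the change of low genes. Exceptions are the authors' DESeq values and the settings with another pseudocount or limma-voom. Because the tissue was sequenced whole, fewer cells of a type and less RNA per cell cannot be told apart.

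Depth was 21.0 to 26.3 M fragments per library. At these depths Syt1, near 1 FPKM, rested on 58 to 120 reads per library and Ptprn on 77 to 132. Nkx2-2 itself, on chromosome 2, measured 1.13, 1.32 and 0.779 FPKM in the control libraries, and 1.1, 0.736 and 0.221 in the mutant libraries. Mutant 1 thus lay inside the range of the controls, and the log2 change was -0.47 (limma adjusted p = 0.999). Which exons are floxed is not stated in the labels, so the level of the whole gene does not check the labels. Summed FPKM of markers of neighbouring tissue differed widely among libraries. The Brunner gland and stomach markers ran from 106.6 in mutant 3 to 6751 in control 2. Exocrine pancreas markers summed to 17464, 15530 and 10732 FPKM in controls 1 to 3, and to 10018, 6303 and 2288 in mutants 1 to 3. Every mutant was below every control for that sum, so it differed between the groups as well as among libraries. Tuft cell markers summed to 24.6 to 29.7 in controls, and to 92.9, 105.7 and 29.1 in mutants 1 to 3.

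**Figure D1:**
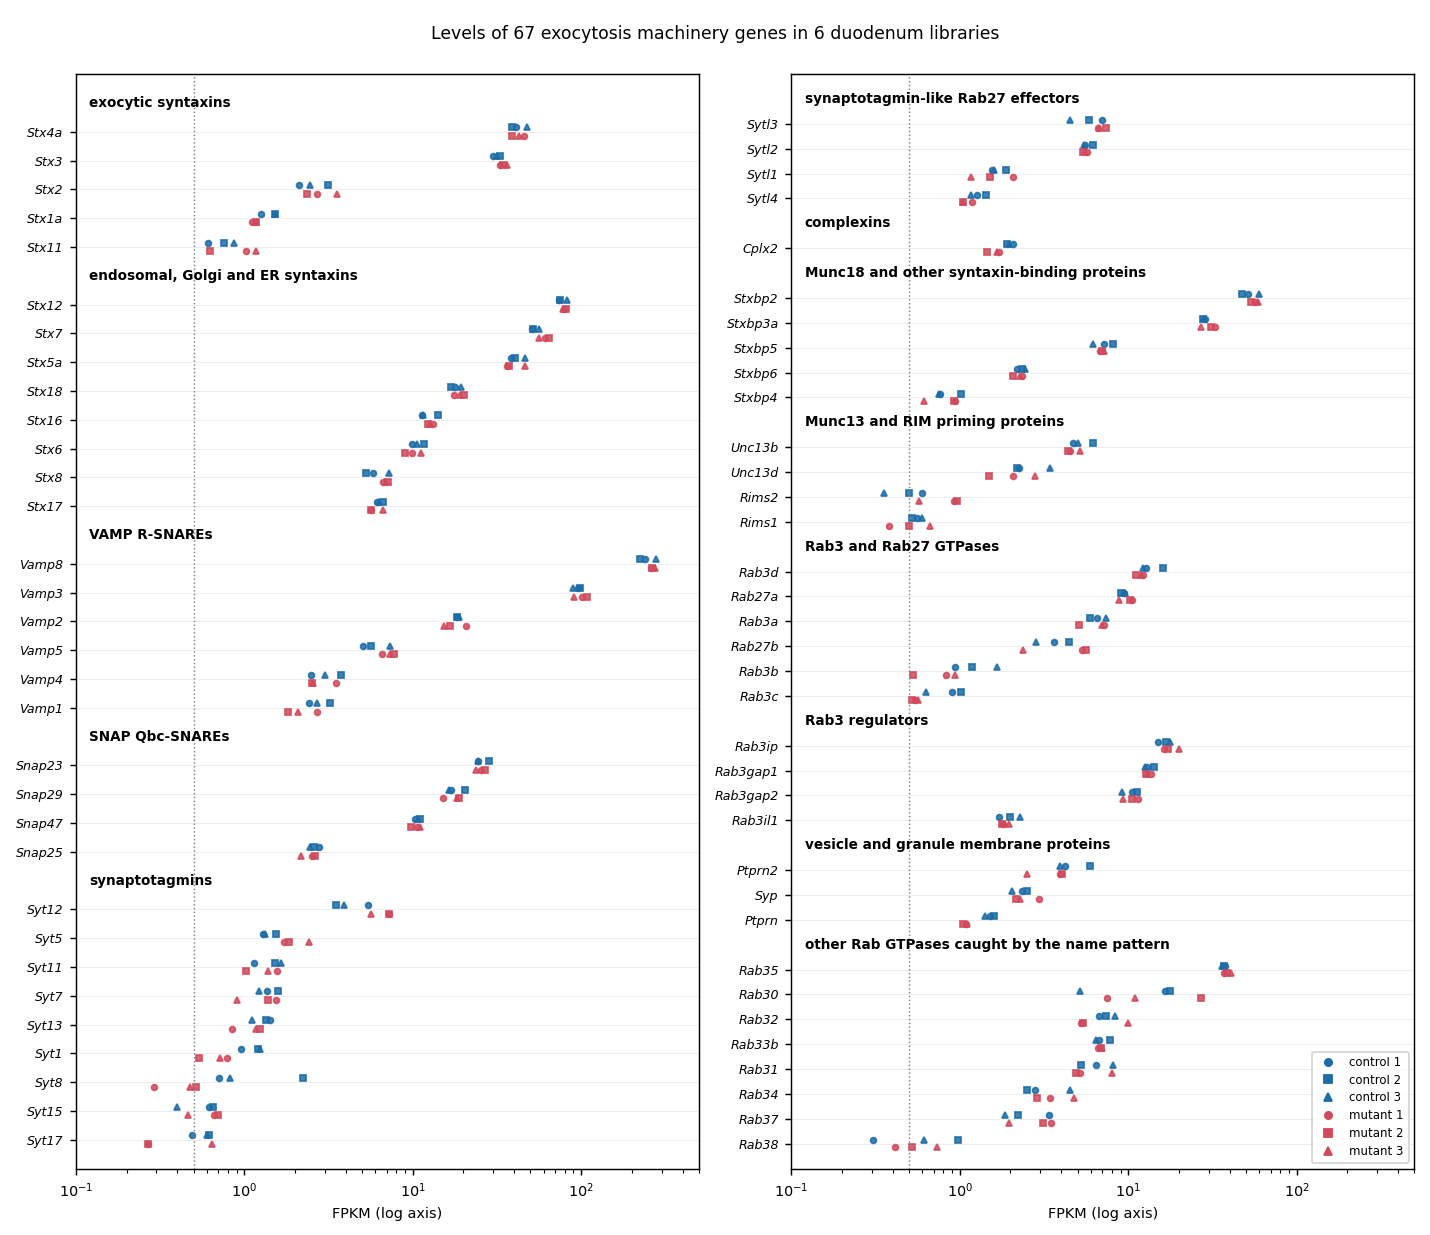
FPKM (log axis) of 67 members in 6 libraries by role, with controls in blue, mutants in red, the replicate number as the symbol's shape and the minimum of 0.5 FPKM as a dotted line. Vamp8 leads at 224.6 to 278.1 FPKM, while the neuronal forms Stx1a, Snap25 and Syt1 lie under 5.

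The exocytic syntaxins, the target-membrane SNAREs of the cell surface, were almost wholly Stx4a and Stx3 by summed FPKM. Stx4a (syntaxin 4, basolateral in epithelia; chromosome 7, 134985322 to 134992479, mm9) stood at 40.8, 39.1 and 47.5 FPKM across controls 1 to 3, against 45.5, 39.0 and 42.8 across mutants 1 to 3, and its log2 change was 0.00 (95% interval -0.27 to 0.27). Stx3, the apical syntaxin of enterocytes (chromosome 19, 11849608 to 11893893), had control values of 30.0, 32.9 and 31.8 FPKM and mutant values of 33.1, 34.2 and 36.5 FPKM. Every mutant was above every control for Stx3, but by a small amount, with a log2 change of 0.13 ± 0.09 (SE, limma adjusted p = 0.999). Stx1a, the syntaxin of synapses and endocrine granules (chromosome 5, 135499442 to 135526969), measured 1.25, 1.53 and 1.53 FPKM in the control libraries, and 1.11, 1.17 and 1.18 in the mutant libraries. Its groups did not overlap either, with a log2 change of -0.22 ± 0.14 (adjusted p = 0.999). Stx1a is singled out here, as are the other members named for lack of overlap with a change under 0.5, after its values were seen. Of the summed FPKM of these 5 syntaxins, Stx1a made 1.82 ± 0.152% in controls and 1.41 ± 0.0954% in mutants (SD, n = 3). Stx3 made 40.1 ± 2.34% and 42.2 ± 2.31%.

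The 8 syntaxins of endosomes, Golgi and ER were a steady background: their log2 changes ran from -0.09 to 0.18, 5 with a higher mean in mutants and 3 with a lower one, and no pair of groups was apart. Stx12, an endosomal syntaxin, was the highest syntaxin at 74.0 to 81.9 FPKM in control and 78.3 to 80.8 in mutant libraries. Stx7, of late endosomes, stood at 51.3, 52.1 and 56.5 FPKM across controls 1 to 3, against 61.2, 64.6 and 56.0 across mutants 1 to 3. Its change of 0.18 (95% interval -0.06 to 0.42) was the largest of this group together with that of Stx8 (0.18, interval -0.13 to 0.50).

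Among the vesicle SNAREs, Vamp8, which serves granule release in exocrine and haematopoietic cells, had the highest level of any member. It had control values of 240.3, 224.6 and 278.1 FPKM and mutant values of 260.4, 262.3 and 272.7 FPKM (chromosome 6, 72335215 to 72340661), and made 66.3 ± 3.1% of summed VAMP FPKM in controls and 67.2 ± 2.22% in mutants. Vamp3, of recycling endosomes, made 25.5 ± 2.76% and 25.3 ± 1.88%. Vamp2, the synaptic vesicle SNARE, made 4.98 ± 0.248% and 4.44 ± 0.698%. Each of these groups overlapped. The sum covers the 6 VAMP genes tested of 7 matched by name, and leaves out Vamp7, which was listed at 0 in every library. The intervals held the change of Vamp8 between -0.19 and 0.40 and that of Vamp3 between -0.19 and 0.33 on the log2 scale.

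The SNAP proteins showed the same order. Snap23, the form found in most tissues, measured 24.4, 28.4 and 24.5 FPKM in the control libraries, and 25.3, 26.9 and 23.9 in the mutant libraries, 45.2 ± 0.235% and 45.6 ± 2.15% of the family. Snap29 came next with 31.4 ± 1.25% and 31.3 ± 2.61%. Snap25, the neuronal and endocrine form and a marker of this machinery (chromosome 2, 136539186 to 136608164), stood at 2.79, 2.6 and 2.44 FPKM across controls 1 to 3, against 2.51, 2.64 and 2.18 across mutants 1 to 3, 4.6 ± 0.508% and 4.39 ± 0.405%. The Snap25 groups overlapped, and its log2 change of -0.08 had an interval of -0.39 to 0.23.

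**Figure D2:**
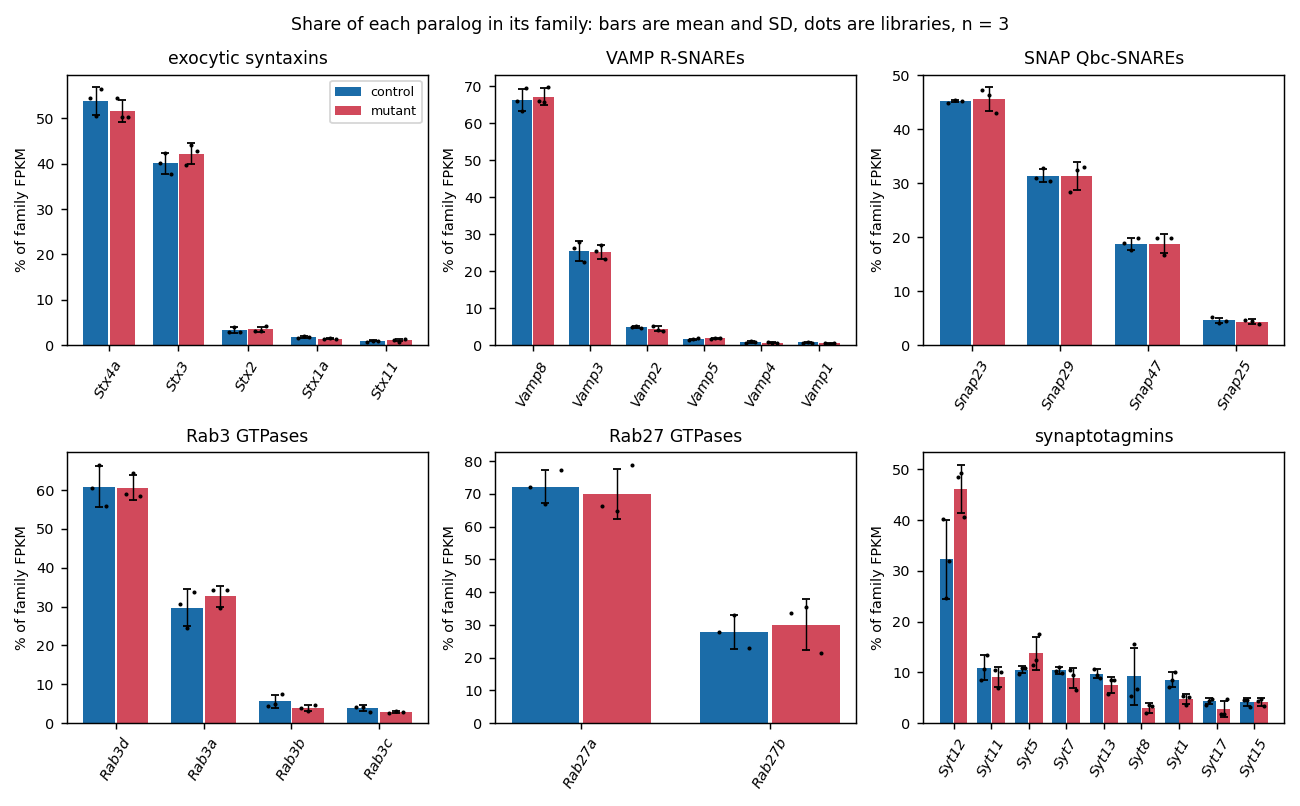
Percent of summed family FPKM held by each paralog in 6 families, with group means as bars, SD as error bars (n = 3 per group) and libraries as dots. Vamp8, Stx4a, Snap23, Rab3d and Rab27a lead their families in both groups, and Syt12 holds 32.3% of synaptotagmin FPKM in controls and 46.1% in mutants.

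Synaptotagmins, the calcium sensors and their relatives, held the widest differences of any role: 4 of the 5 members at an unadjusted p under 0.05 were among the 9 tested. Syt12, a synaptotagmin that lacks the usual calcium-binding residues (chromosome 19, 4445908 to 4477143), had control values of 5.4, 3.52 and 3.93 FPKM and mutant values of 7.18, 7.27 and 5.62 FPKM. All mutants were above all controls, the log2 change was 0.60 ± 0.18 (95% interval 0.18 to 1.02), and the adjusted p was 0.999. This was the one member at a p under 0.05 in each of the 6 fits that left out a library. Of the exon bases of Syt12, 17.2% are shared with A930001C03Rik, a gene at 1.11 to 2.8 FPKM in control and 1.01 to 2.11 in mutant libraries, and counting by strand is not stated.

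Syt5, a calcium-binding synaptotagmin (chromosome 7, 4491367 to 4498169), measured 1.29, 1.55 and 1.33 FPKM in the control libraries, and 1.71, 1.83 and 2.42 in the mutant libraries. It was the other synaptotagmin higher in every mutant, with a log2 change of 0.38 ± 0.16 (adjusted p = 0.999). Syt1, the sensor of fast transmitter release (chromosome 10, 107934706 to 108448031), stood at 0.959, 1.21 and 1.24 FPKM across controls 1 to 3, against 0.79, 0.539 and 0.717 across mutants 1 to 3. All mutants were below all controls, the log2 change was -0.47 ± 0.16 (95% interval -0.84 to -0.10), and the adjusted p was 0.999. Syt12 thus made 32.3 ± 7.8% of synaptotagmin FPKM in controls and 46.1 ± 4.69% in mutants, and Syt1 8.56 ± 1.44% and 4.72 ± 0.931%, while the summed level was 13.3 ± 0.963 and 14.5 ± 0.586 FPKM.

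Syt8 rested on 8 to 63 reads per library, the fewest of the synaptotagmins at this p. It had control values of 0.706, 2.22 and 0.828 FPKM and mutant values of 0.29, 0.519 and 0.479 FPKM (chromosome 7, 149620882 to 149626303), and control 2 stood far above the rest. The log2 change was -0.82 ± 0.32 (adjusted p = 0.999), and -0.45 without control 2. Control 2 also had the highest sum of Brunner gland and stomach markers, 6751 FPKM against 2136 and 2439 in controls 1 and 3, whose part in the Syt8 values was not tested. The remaining 5 synaptotagmins overlapped between groups, among them Syt7, a sensor of slow and granule release, at 1.22 to 1.59 FPKM in control and 0.911 to 1.54 in mutant libraries.

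**Figure D3:**
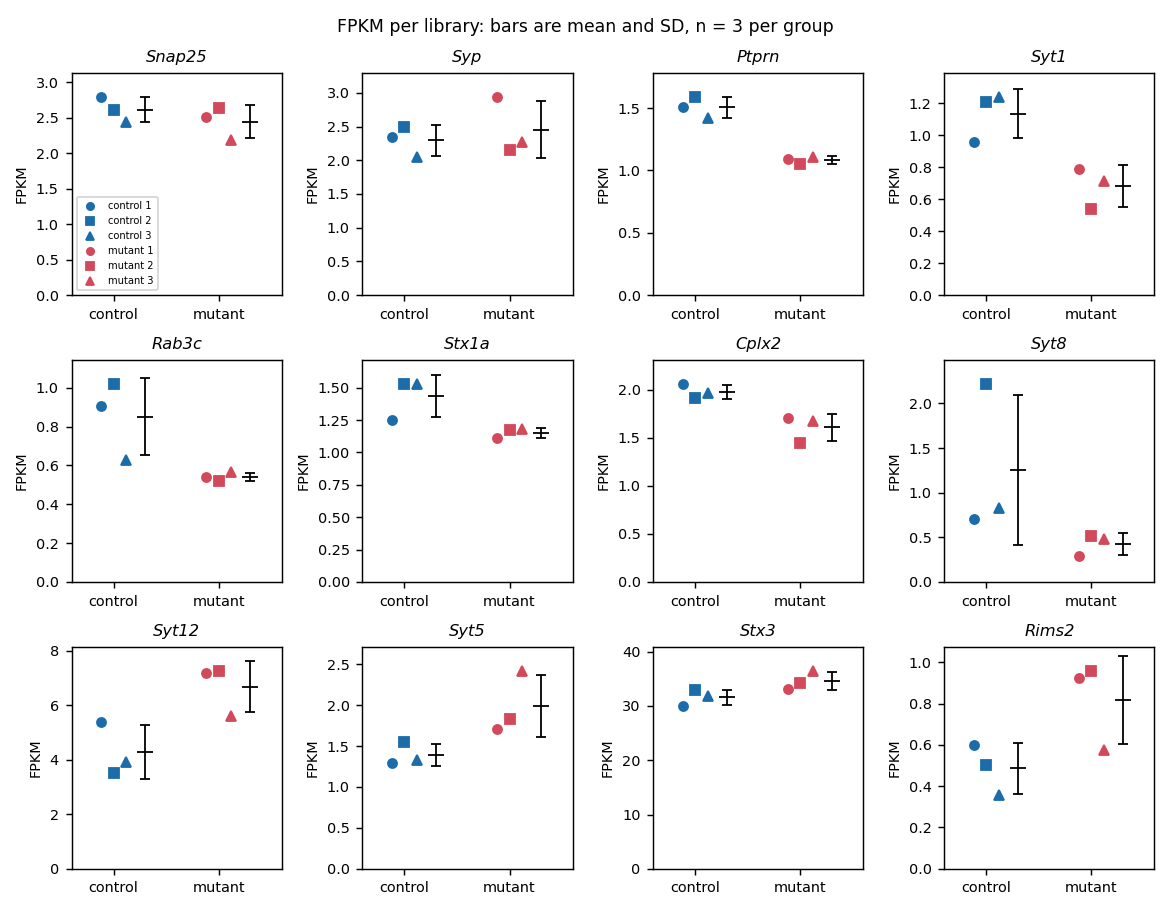
FPKM per library (axes from 0) of 12 members in controls (blue) and mutants (red), with the group mean and SD beside them (n = 3 per group). Snap25 and Syp overlap between groups, as does Rims2, while Ptprn, Syt1, Rab3c, Stx1a, Cplx2 and Syt8 are lower in every mutant than in every control, and Syt12, Syt5 and Stx3 are higher, with no adjusted p under 0.999.

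The synaptotagmin-like proteins, which link Rab27 to the plasma membrane, were led by Sytl3 and Sytl2. Sytl2 measured 5.51, 6.2 and 5.5 FPKM in the control libraries, and 5.73, 5.42 and 5.54 in the mutant libraries, a log2 change of -0.04 with an interval of -0.29 to 0.22. Sytl3 stood at 7.0, 5.84 and 4.53 FPKM across controls 1 to 3, against 6.6, 7.39 and 6.74 across mutants 1 to 3, and 2 near-identical copies of its transcript elsewhere in mm9 make its level uncertain. Cplx2 was the only complexin, a clamp on assembled SNAREs, to reach the minimum. It had control values of 2.06, 1.91 and 1.96 FPKM and mutant values of 1.7, 1.45 and 1.67 FPKM. The groups did not overlap, with a log2 change of -0.23 ± 0.13 (adjusted p = 0.999).

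Of the Munc18 proteins, Stxbp2, the form of epithelia and cytotoxic cells that partners Stx3, measured 51.3, 47.6 and 59.4 FPKM in the control libraries, and 56.6, 53.9 and 58.6 in the mutant libraries. Stxbp3a, the broadly expressed form, followed with 27.8 to 28.5 FPKM in control and 26.9 to 32.7 in mutant libraries. The log2 changes of the 6 syntaxin-binding members ran from -0.05 to 0.10, the narrowest range of any role with over 4 members.

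The priming proteins were low. Unc13b, of the Munc13 family, stood at 4.67, 6.2 and 5.03 FPKM across controls 1 to 3, against 4.54, 4.4 and 5.14 across mutants 1 to 3. Unc13d, the Munc13 of immune granules, had control values of 2.24, 2.19 and 3.45 FPKM and mutant values of 2.06, 1.5 and 2.81 FPKM. Both overlapped between groups. Rims2, a RIM scaffold of release sites named after its values were seen, measured 0.6, 0.502 and 0.357 FPKM in the control libraries, and 0.922, 0.959 and 0.573 in the mutant libraries (log2 change 0.41 ± 0.18, adjusted p = 0.999). Each mutant was above the control of its own number. The labels do not say that equal numbers pair the samples, and the share of all genes with such an order was not counted. Mutants 1 and 2 were the high ones, as they were for the summed tuft cell markers (92.9 and 105.7 FPKM, against 29.1 in mutant 3), and the part of those cells was not tested.

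Among the GTPases that tether vesicles, Rab3d, the Rab3 of exocrine granules, made 60.9 ± 5.35% of Rab3 FPKM in controls and 60.6 ± 3.24% in mutants. It stood at 12.8, 16.1 and 12.2 FPKM across controls 1 to 3, against 12.3, 11.1 and 11.9 across mutants 1 to 3. Rab3c, a Rab3 of neurons and endocrine cells (chromosome 13, 110844396 to 111070414), had control values of 0.905, 1.02 and 0.63 FPKM and mutant values of 0.539, 0.522 and 0.564 FPKM. Every mutant was below every control, with a log2 change of -0.37 ± 0.16 (adjusted p = 0.999). Rab3b overlapped by a narrow margin, at 0.931, 1.18 and 1.66 FPKM for controls, 0.831, 0.526 and 0.936 for mutants (log2 change -0.47 ± 0.21, adjusted p = 0.999). Each mutant was below the control of its own number, though the numbers are not stated to pair the samples.

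Rab27a, which docks granules through the synaptotagmin-like proteins, was steady at 9.01 to 9.58 FPKM in control and 8.78 to 10.5 in mutant libraries. Rab27b measured 3.65, 4.43 and 2.83 FPKM in the control libraries, and 5.35, 5.58 and 2.37 in the mutant libraries, so that mutants 1 and 2 held its highest values and mutant 3 its lowest, the order of the tuft cell sums among mutants, whose part was not tested. The members grouped by name as Rab3 regulators had log2 changes of -0.08 to 0.11. They were Rab3ip, Rab3il1, and Rab3gap1 and Rab3gap2, the subunits of the Rab3 GTPase-activating protein. Of the exon bases of Rab3gap2, 28.9% are shared with Iars2, which lay at 16.1 to 23.4 FPKM.

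The granule and vesicle membrane proteins Ptprn, Ptprn2 and Syp gave 3 different pictures. Ptprn, a transmembrane protein of dense-core granules (chromosome 1, 75243616 to 75260783), stood at 1.51, 1.59 and 1.42 FPKM across controls 1 to 3, against 1.09, 1.05 and 1.11 across mutants 1 to 3. The 2 groups were tight and apart, with a within-group SD of 0.05 on the log2 scale, and the log2 change was -0.34 ± 0.13 (95% interval -0.64 to -0.04, adjusted p = 0.999). Its relative Ptprn2 had control values of 4.22, 5.91 and 3.93 FPKM and mutant values of 3.91, 4.02 and 2.52 FPKM, where 1 mutant reached the range of the controls (log2 change -0.38 ± 0.21, adjusted p = 0.999). Each Ptprn2 mutant value was below the control of its own number, an order not counted over all genes. With the replicate number as a block, 6 members were at an unadjusted limma p under 0.05, Syt12, Syt1, Syt8, Ptprn2, Rims2 and Rab3b; Ptprn and Syt5 no longer were, and none passed the adjusted threshold. Syp, the synaptic vesicle protein (chromosome X, 7215706 to 7230382), measured 2.35, 2.5 and 2.05 FPKM in the control libraries, and 2.94, 2.16 and 2.27 in the mutant libraries, with a log2 change of 0.07 and an interval of -0.29 to 0.43. Of the Syp exon bases, 16.8% are shared with Gm14703.

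The 8 other Rab GTPases held the member with the widest spread. Rab30, a Golgi Rab, stood at 16.5, 17.6 and 5.16 FPKM across controls 1 to 3, against 7.47, 27.0 and 11 across mutants 1 to 3, and its interval ran from -1.49 to 1.84. Rab35, of endocytic recycling, was at the other end, with 36 to 37.4 FPKM in controls, 37.2 to 40.9 FPKM in mutants and an interval of -0.13 to 0.29. None of the 8 was apart between groups.

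The width of the intervals differed by level. Of the 22 members at 10 FPKM or more, 21 had a 95% interval inside ±0.5 on the log2 scale, the exception being Rab30, and none was at an unadjusted p under 0.05. Their median log2 change was 0.04. Of the 25 members of 2 to under 10 FPKM, 12 had an interval inside ±0.5. The median within-group SD on the log2 scale was 0.18, 0.21 and 0.12 from the lowest class to the highest, so spread did not simply follow level. The 0.5 added to FPKM also narrows the intervals of low genes, so the bound is not the same fold change in each class. Of the 21 members under 2 FPKM, 5 had so narrow an interval. This class held all 6 members that were lower without overlap and 1 of those that were higher. Over all 2532 genes tested under 2 FPKM, 156 were lower and 91 higher without overlap. A lower mean in mutants was found in 17 of the 21 members (81.0%), with a median change of -0.10. Over all genes tested of that level it was found in 1508 (59.6%), with a median of -0.05. As deviations from each gene's control mean on the log2 scale, these 21 members had medians of -0.17, -0.14 and -0.19 in mutants 1 to 3 and -0.08, 0.07 and -0.04 in controls 1 to 3. Over all genes tested under 2 FPKM the mutant medians were -0.03, -0.15 and 0.04, so in mutant 2 the members stood where other low genes did.

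**Figure D4:**
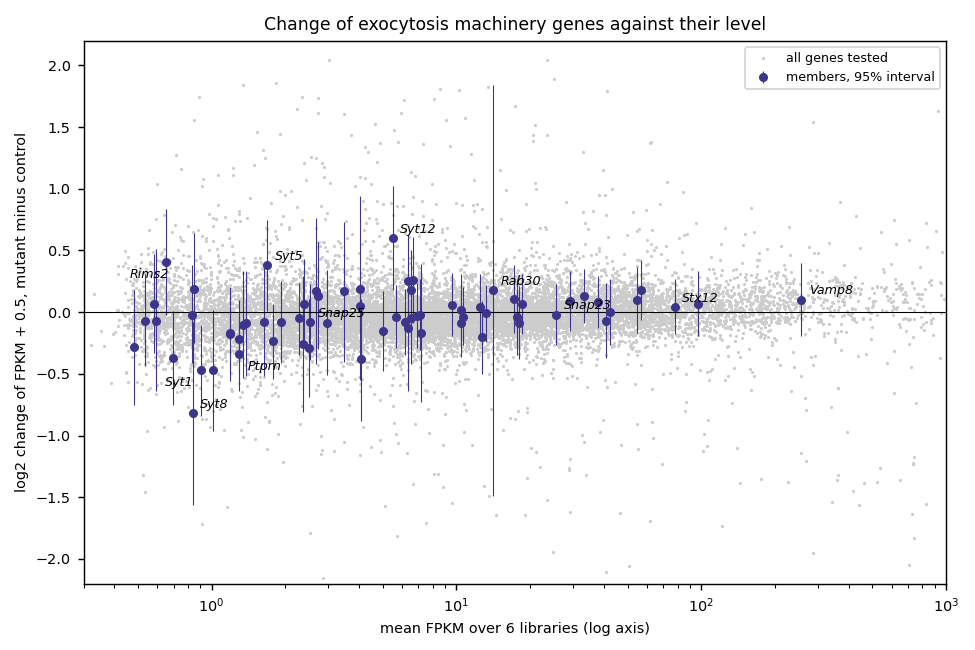
Log2 change (mutant minus control) against mean FPKM over 6 libraries (log axis) for the 68 members, with 95% intervals, over the 13596 genes tested in grey (points beyond the axes not drawn). Members at 10 FPKM or more sit close to 0 apart from the wide interval of Rab30, and most of the members under 2 FPKM lie below 0.

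The low members include genes of neurons and endocrine cells, and most markers of both cell types also had lower means in mutants. Other lists did too. Every tested marker had a lower mean for exocrine pancreas (9), Brunner glands and stomach (5), enteric glia (3) and B and plasma cells (3). Of goblet cell markers 5 of 6 were lower, and of smooth muscle markers 5 of 7. Tuft cell (7) and mucosal mast cell (4) markers were all higher, as were 4 of 5 for Paneth cells and 6 of 7 for cytotoxic lymphocytes. All 10 tested enteric neuron markers had a lower mean in mutants, with a median log2 change of -0.25. The 3 listed markers under the minimum, Nefm, Nefl and Elavl3, had a higher mean, which made 10 lower and 3 higher over the whole list. Nefm stood at 0.332, 0.29 and 0.187 FPKM for controls, and 1.36, 1.03 and 0.427 for mutants. The list, of 13 markers with none at 0 in every library, summed to 23.6 to 27.8 FPKM in control and 20.5 to 24.7 in mutant libraries, so the ranges overlapped. Of 10 tested enteroendocrine markers 8 had a lower mean and 2 a higher one (9 and 3 over the whole list of 12), and that list summed to 139.5 to 213.8 FPKM in control and 78.9 to 135.2 in mutant libraries, again with none at 0 in every library. The 2 with a higher mean were Cpe and Isl1. Chgb, the largest part of that sum in controls, stood at 113.0, 110.4 and 61.1 FPKM there, and 34.7, 34.4 and 18.3 in mutants. Cpe went the other way, at 33.8, 38.5 and 43.5 FPKM in controls and 74.5, 62.8 and 44.7 in mutants. How much of the values of Syt1, Ptprn, Rab3c, Stx1a and Cplx2 belonged to either cell type, or to neighbouring tissue such as pancreas, was not tested. The summed exocrine pancreas markers were also lower in every mutant than in every control.

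The 25 genes that matched by name but stayed under the minimum included the neuronal paralogs Syt2, Unc13a and Rims3. Cplx1, a synaptic complexin, had control values of 0.346, 0.486 and 0.376 FPKM and mutant values of 0.166, 0.148 and 0.12 FPKM. It was 1 of 3 that were lower in every mutant, with Stxbp5l and Syt4, and Rab36 was the 1 that was higher. Cplx4, Syt10 and Vamp7 were listed at 0 in every library. Vamp7 was placed on X_random and not on a named chromosome, and whether its 0 comes from that placement was not tested. It is therefore not given as absent from the duodenum. Just inside the minimum were Rims1 and Syt17, whose highest-but-2 library stood at 0.555 and 0.597 FPKM, and just outside was Syt4 at 0.495 FPKM. No member had all 3 libraries of 1 group at or above the minimum and all 3 of the other under it. At or above it in all 6 libraries were 62 of 68. Syt8 reached it in all 3 controls, and of the mutants only in mutant 2 (0.519 FPKM), so its membership rests on the controls.

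Partners of the machinery outside the name pattern were counted in the same fit. Of 56 listed genes for SNARE disassembly, active zones, Rab effectors, vesicle membranes and the exocyst, 43 were tested and 0 passed the adjusted threshold of limma. At an unadjusted p under 0.05 there were 0 higher and 2 lower, against 1.8% and 1.63% of all genes. Of the 43, 0 were higher and 5 lower without overlap, against 4.05% and 3.71% of all genes. Those 5 were Nsf, Baiap3, Syn1, Syn2 and Exoc1, some of them named after their values were seen. A higher mean was found in 15 and a lower one in 28, where 55.8% of all genes had a lower mean, and the median log2 change was -0.03. Baiap3, a Munc13 relative, measured 1.86, 1.29 and 1.06 FPKM in the control libraries, and 0.401, 0.41 and 1.02 in the mutant libraries (log2 change -0.80 ± 0.26). Syn2, a synapsin that gathers synaptic vesicles, stood at 1.35, 1.55 and 1.17 FPKM across controls 1 to 3, against 0.833, 0.813 and 1.11 across mutants 1 to 3 (log2 change -0.39 ± 0.16). For both, mutant 3 stood nearest the controls. The highest genes of each list were the disassembly adaptor Napa (mean 41.4 FPKM over 6 libraries), the active zone protein Ppfia1 (12), the Rab effector Rph3al (11.8), the vesicle protein Syngr2 (89.6) and the exocyst subunit Exoc3 (16.4), and each was within 0.2 of no change on the log2 scale.

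By isoform, 77 of the 104 deposited isoforms of the members were tested. No member isoform passed limma's adjusted threshold, against 0.00617% of the 16213 isoforms tested, and 3 (3.9%, against 3.79%) were at an unadjusted p under 0.05. They were the single isoform of Syt12, the 3673-base isoform of the Golgi syntaxin Stx16 and the 2742-base isoform of the vesicle SNARE Vamp1. Ptprn, Syt5 and Syt8, under 0.05 as genes, were not under it here, though their single isoforms had the same FPKM as the genes. Their unadjusted limma p in the fit over isoforms was 0.0583, 0.0676 and 0.0546. The Stx16 isoform had control values of 6.91, 5.27 and 6.68 FPKM and mutant values of 8.63, 7.22 and 10.4 FPKM. It was higher in every mutant (log2 change 0.44 ± 0.17, limma adjusted p = 0.999), while the gene as a whole had a log2 change of 0.04. The estimated split among Stx16 isoforms was unstable within controls. The 3724-base isoform stood at 0.000751, 5.9 and 4.82 FPKM in controls 1 to 3, and the 3736-base isoform at 4.53, 0.00115 and 0.000163. The Vamp1 isoform measured 1.11, 1.54 and 1.73 FPKM in the control libraries, and 1.09, 0.296 and 0.783 in the mutant libraries, lower in every mutant (log2 change -0.73 ± 0.30, adjusted p = 0.999). Of 20 members with more than 1 isoform, the leading isoform differed between groups in Stx11, Syt1 and Vamp1. None of the 3 Stx11 isoforms reached the minimum for testing. For Syt1 the estimate put nearly all signal on the 4740-base isoform in controls 1 and 3 and mutant 3, and on the 4731-base isoform in control 2 and mutants 1 and 2, so it split by library and not by group.

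The authors' deposited table of their own DESeq comparison held all 68 members. In it, the authors' deposited table, 5 members had a p under 0.05 (7.35%, against 2.16% of 18605 genes), and the lowest adjusted p was 1.0. In the authors' deposited table these were Syt1 (log2 fold change -0.71, DESeq p = 0.0123), Rab3c (-0.62, p = 0.0145), Syt12 (0.69, p = 0.0193), Rab3b (-0.72, p = 0.0209) and Rims2 (0.95, p = 0.0409). Syt1 and Syt12 are the members under 0.05 in both analyses of these same libraries.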

How the data were processed

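Total RNA with a RIN above 8 went into TruSeq RNA libraries for a HiSeq2000, per the labels' protocols. The submitters' processing notes list mm9 as the build and DESeq, Cufflinks, TopHat and CASAVA 1.8.2 as tools; options and strand are not given in the sources used here. The authors deposited FPKM per gene and per isoform for each library, with a coverage signal per isoform, per the file headers. The authors' deposited comparison holds, per the file headers, normalized group means (a signal) with a ratio, a log2 fold change and raw and adjusted p-values.

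Depth came from the ratio of FPKM to coverage. A read length of 101.0 bases, fitted to the coverage, turned it into reads: in single-isoform genes, 93.1% of the 12014 values that came to no more than 20 reads were whole to within 0.1. The test was limma 3.58.1 on log2(FPKM + 0.5), run in R 4.3.3 with statmod 1.5.0 (trended, robust eBayes). It was two-sided, took genes at 0.5 FPKM or more in 3 or more libraries, and used Benjamini-Hochberg adjustment over all of them at 0.05. The script was tested on simulated data. Python 3.11.15, pandas 2.3.3, numpy 2.4.6 and matplotlib 3.10.9 made the summaries and plots. Copies of transcripts were sought in mm9 with minimap2 2.31-r1302 (95% identity or more across 50% or more of a transcript), and exon overlap came from the GENCODE annotation of mm9.

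The members, role groups, marker lists and partner genes were chosen with earlier results of these data known. Members are named if they are Syp, Snap25 or Ptprn, are among the 2 highest of a role, have an unadjusted p under 0.05, or do not overlap with a log2 change of at least 0.5; other named members, the family shares, the classes by level and the printed promoters were chosen after values were seen. Partner genes are named at an unadjusted p under 0.05 or as the highest of their list.

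Both groups are numbered 1 to 3, and what a number marks is not stated. Deviations from the group means correlated at 0.26, 0.25 and 0.58 within same-numbered pairs, each above 0.1, the cutoff set for treating them as pairs. Control 1 with mutant 2 gave 0.30 and control 2 with mutant 1 gave 0.19, also above that cutoff. Crosses of a library 3 with a library 1 or 2 gave -0.43 to -0.32. These values set library 3 apart in both groups, so they cannot show that equal numbers pair the samples. Alternatives were pseudocounts of 0.1 and 1, no filter, an FPKM minimum of 1, upper quartile and quantile scaling, the replicate block, leaving out each library and, for genes but not isoforms, sample weights and limma-voom on rebuilt reads. Of the genes matched by name, 1 member and 1 gene under the minimum are counted but not reported here.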

Additional observations from a re-analysis of the deposited data

How the results depend on the processing

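No member passed an adjusted p of 0.05 in any of the 15 alternatives for genes or the 13 for isoforms; the lowest adjusted p of a member gene was 0.205, for Syt12 with sample weights. With the replicate block limma called 0 members, with 2 higher and 4 lower at an unadjusted p under 0.05. The block thus changed no call past the adjusted threshold. At the unadjusted p it dropped Ptprn and Syt5 and added Ptprn2, Rims2 and Rab3b. Among the partner genes the block left 1 lower at that p. The count of members lower at an unadjusted p under 0.05 (3) was 1 with an FPKM minimum of 1, which tests fewer members, and 7 with sample weights, which gave mutant 1 the weight of 4.64 and mutant 3 that of 0.357. It was 0 to 4 when 1 library was left out, and the count of higher members (2) was 1 to 3; it was 0 lower and 1 higher without mutant 2. The median log2 change was 0.03 with sample weights and -0.06 to 0.02 when 1 library was left out. Counts without overlap were 4 to 11 higher and 6 to 15 lower, because fewer libraries make overlap rarer. For partner genes 0 to 1 were higher and 0 to 3 lower at that p when 1 library was left out, and for isoforms 0 to 2 higher and 0 to 2 lower. Lower isoforms numbered 3 with no filter and 0 with an FPKM minimum of 1. In fits that left out 1 library an unadjusted p under 0.05 was reached by Syt12 in 6 of 6, Syt1 in 3, Syt8 in 3, Syt5 in 2 and Ptprn in 0. Over all settings the log2 change ran from 0.48 to 0.76 for Syt12, -0.74 to -0.34 for Syt1, -1.33 to -0.45 for Syt8, 0.26 to 0.49 for Syt5 and -0.48 to -0.27 for Ptprn. These ranges include other pseudocounts and limma-voom, which put the change of low genes on other scales. For Syt1 the ends came from limma-voom (-0.74) and a pseudocount of 1 (-0.34). Of the 29 members named by rule, 7 changed sign in at least 1 setting: Stx4a, Snap23, Snap29, Sytl2, Rab3gap1, Syp and Rab30. Where no cause is stated, the cause was not tested.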
